A study of Rattus norvegicus with 6 samples.

Results

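The cytochrome P450 genes were followed in whole kidneys of 3 Dahl S and 3 Lewis rats, all male and all given 8% NaCl food for 8 weeks from 5 weeks of age, with RNA of each rat on its own Affymetrix array. The Dahl S strain is salt sensitive, and Lewis is the comparison strain. No rats on another diet were analysed here, so a strain difference present on any diet and one that arises with salt cannot be told apart. Members were the probe sets whose single symbol in the platform annotation begins with Cyp and a digit. Cyp51, Cyp27b1, Cyp24a1 and the Cyp26 genes, which serve sterol, vitamin D and retinoid metabolism, were left out. This gave 60 probe sets of 54 genes, out of 20826 probe sets of 14217 genes with a single symbol. A further 7 probe sets carry several Cyp symbols and were not members. P450 genes of a subfamily can be close in sequence, and the strains can differ in sequence under a probe; neither was examined for these probe sets, so a signal may include a close relative.

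Cytochrome P450 enzymes are haem proteins that insert oxygen into lipids, steroids, drugs and other foreign compounds, with electrons from the reductase Por in the endoplasmic reticulum or from ferredoxin in mitochondria. In rat kidney the proximal tubule is a main site of these enzymes. There the CYP4A and CYP4F enzymes hydroxylate arachidonate and other fatty acids at the end of the chain, and CYP2C and CYP2J enzymes make arachidonate epoxides, lipids that act on renal vessels and on tubular sodium transport. CYP1 enzymes are classic targets of the aryl hydrocarbon receptor.

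The arrays came at different overall levels, with 2% trimmed mean signals of 118 to 249, and were brought to a common distribution by quantile normalization. Values below are normalized signals, in the arbitrary unit of the deposited intensities, listed for rats 1, 2 and 3 of a strain. Differences are Dahl S minus Lewis on the scale log2(normalized signal + 16), with the standard error (SE) of limma's fit and a p adjusted over all 15797 probe sets tested. A probe set was tested if it exceeded the median of all values, a signal of 61.6, on at least 3 of the 6 arrays. The unit of replication was the rat, with n = 3 per strain throughout.

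Of the 60 P450 probe sets, 22 probe sets of 20 genes passed this filter and 38 did not. In Dahl S kidneys 7 of the 22 were lower and 2 higher. Over all probe sets tested 16.2% passed the threshold, 7.75% lower and 8.50% higher, against 40.9% of the P450 probe sets, 31.8% of them lower. Counted by gene, 7 P450 genes were lower and 2 higher, where 7.62% of all 9540 genes were lower and 9.04% higher. The genes that were lower were Cyp2c11, Cyp2e1 and Cyp2d2 of family 2 and Cyp4f1, Cyp4f6, Cyp4a1 and Cyp4a3 of family 4. The genes that were higher, Cyp1a1 and Cyp1b1, were the tested members of family 1. Cyp1a1 exceeded the filter's median on the Dahl S arrays alone, so it was bound to be higher. It is included among the higher and the fully separate probe sets counted in this paragraph. The median difference was -0.17 for the 22 P450 probe sets and 0.001 for all probe sets. The values of the strains were fully apart in 16 of the 22 (72.7%, against 34.4% of all probe sets), in 11 of them with Dahl S below Lewis and in 5 with Dahl S above.

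**Figure D1:**
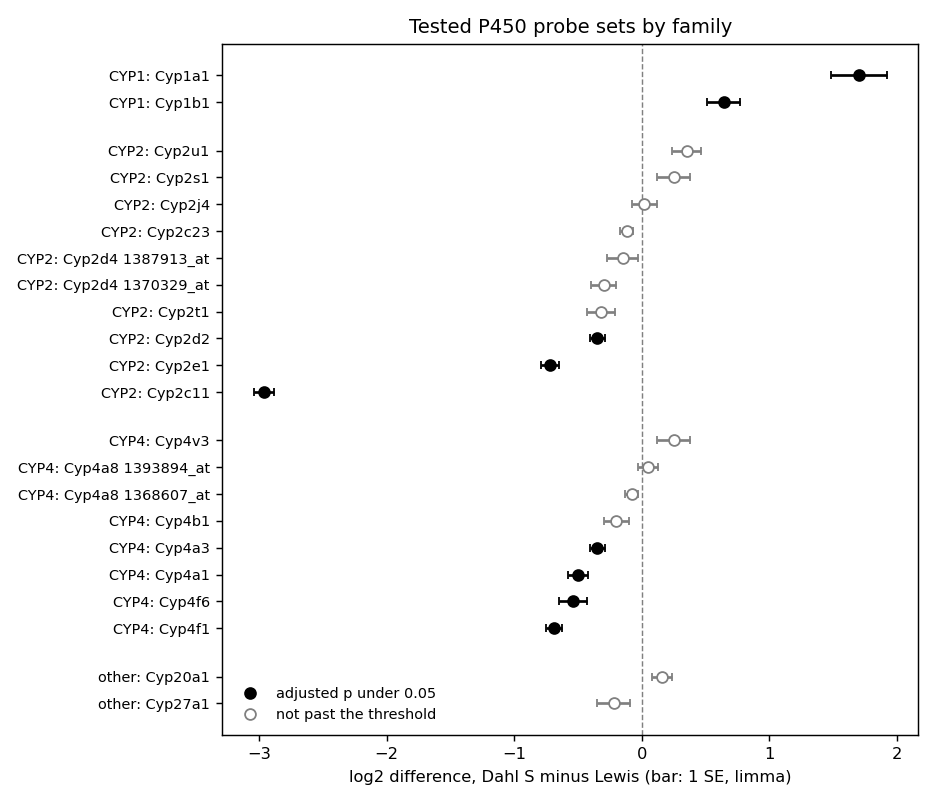
Difference between strains (Dahl S minus Lewis, log2 scale, horizontal axis) for each of the 22 tested P450 probe sets, grouped by family, with bars of 1 SE; filled points passed the adjusted threshold. Cyp2c11 at -2.96 stands far to the left, and the filled points to the right of 0 are Cyp1a1 and Cyp1b1.

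These calls depend on the normalization. In the deposited values as they stand, the median over the whole table was a Dahl S excess of 0.41, and of the 7 lower P450 genes only Cyp2c11 passed (-2.56), with the other 6 between -0.39 and -0.04. Cyp1a1 and Cyp1b1 passed as higher there too (1.97 and 1.00). Relative to that shift all 7 were below 0 and both family 1 genes above it, and 21 of the 22 tested probe sets had the sign they had after normalization. Taking off the shift is itself a normalization, so these signs are no independent check. Deposited values also keep the differences in level among arrays of a strain. Cyp4f1, for example, gave 2010, 3830 and 2910 in Lewis as deposited and 3130, 3080 and 3110 after normalization. That spread enters the fit without normalization, so not passing there, here and in the lists below, does not by itself show equal levels.

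**Figure D2:**
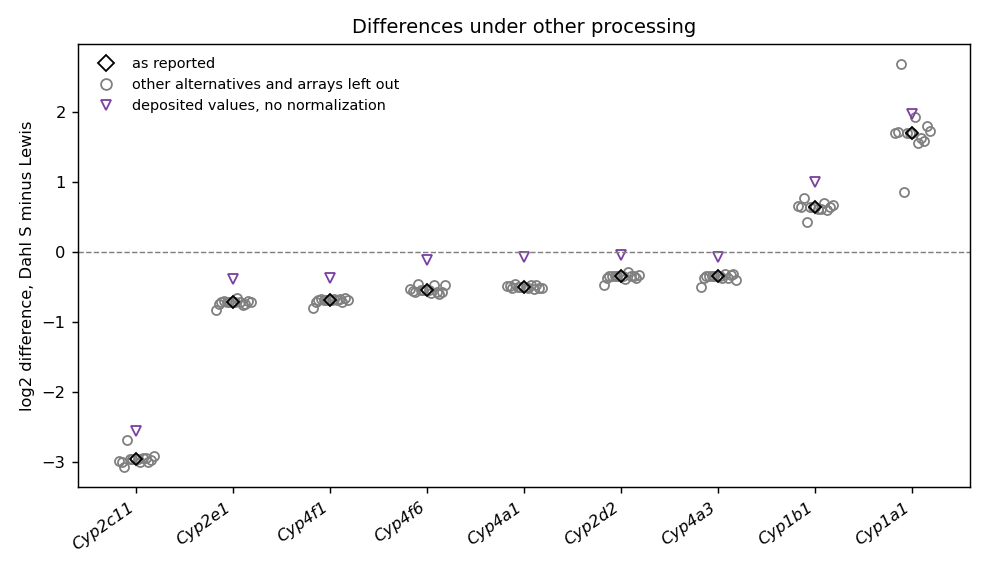
Difference between strains (Dahl S minus Lewis, log2 scale, vertical axis) of the 9 P450 genes past the threshold as reported (diamonds), in the deposited values without normalization (triangles) and under the other alternatives and with each array left out (circles). All values of a gene lie on the same side of 0; those of Cyp1a1 spread from 0.86 to 2.68 with the pseudocount.

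These were whole kidneys, so a lower signal from fewer cells of a type and from less RNA per cell cannot be told apart. Of 15 proximal tubule markers 7 were lower in Dahl S and 0 higher, with a median difference of -0.17, and the sum of their signals was 62100 to 65300 in Lewis and 54000 to 54400 in Dahl S. Without normalization 0 of the 15 passed in limma's fit, 1 had an unadjusted p under 0.05, and their median was 0.05, below the shift of the whole table. The largest falls among these markers were those of the transporter genes Slc5a12 (-0.84, adjusted p = 2.0e-05), Slc13a3 (-0.80, adjusted p = 8.1e-04) and Slc22a6 (-0.69, adjusted p = 1.9e-04), with Gatm (-0.28, adjusted p = 0.0014) among the others. Without normalization Gatm differed by -0.09. Lrp2, which encodes the endocytic receptor megalin, differed by -0.07 (adjusted p = 0.34). Of 9 measured tubular injury markers 8 were higher, with sums of 6640 to 7590 in Lewis and 13900 to 14200 in Dahl S; they include Havcr1, Clu, Timp1 and Spp1, of which Havcr1 was 8.39-fold higher. Without normalization 7 of these 9 were higher. Of 7 macrophage markers tested 6 were higher and 0 lower, with sums of 4010 to 4180 in Lewis and 5020 to 5220 in Dahl S. Of 4 erythrocyte markers tested 3 were higher and 0 lower, with sums of 4430 to 5450 and 6130 to 6580; without normalization 2 of the macrophage and 1 of the erythrocyte markers passed. Of 3 adipose tissue markers tested 1 was higher, Fabp4, and 1 lower, Cidec, which without normalization did not pass and differed by 0.10. Beside these marker counts, 7.62% of all genes tested were lower and 9.04% higher. The part of cell makeup or injury in the P450 differences was not tested. Of 13 markers of liver, the main P450 organ, 11 were below the filter. Albumin (Alb) gave 14.0, 24.6 and 34.2 in Lewis and 11.7, 4.54 and 5.76 in Dahl S. Apoc3 was brighter, at 455, 448 and 451 in Lewis and 335, 345 and 337 in Dahl S. The liver markers tested were Apoc3, which was lower (-0.40, but 0.04 without normalization), and Cps1, which was higher (0.72) but exceeded the filter's median on the Dahl S arrays alone and was therefore bound to differ.

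The tested genes of family 1 were higher in Dahl S. Cyp1b1 oxidizes steroids and polycyclic compounds and is expressed mostly outside the liver. Its signal was 54.6, 53.9 and 63.1 in Lewis and 103, 97.5 and 92.8 in Dahl S. Every Dahl S rat lay above every Lewis rat, with means on the log2 scale of 6.83 ± 0.07 and 6.19 ± 0.10 (SD, n = 3), a difference of 0.64 (SE 0.13, 1.56-fold, adjusted p = 0.0043). Cyp1a1, the inducible enzyme that oxidizes polycyclic hydrocarbons, gave 21.5, 6.14 and 8.49 in Lewis and 87.7, 62.0 and 69.9 in Dahl S. Lewis signals of this gene were far below the median of the arrays, and all Dahl S signals were above it. The difference was 1.70 (SE 0.22, 3.25-fold, adjusted p = 1.9e-04). Its size depends on the pseudocount, at 2.68 with a pseudocount of 1 and 0.86 with 64. Cyp1a1 passed the filter through the Dahl S arrays alone and was therefore bound to differ; with no filter its adjusted p was 0.0026, and that of Cyp1b1 was 0.020. The third gene, Cyp1a2, an enzyme known chiefly from liver, was not tested, with signals of 1.61 to 4.54 over all 6 arrays. The receptor gene Ahr differed by -0.42 (adjusted p = 0.054) and its partner Arnt by -0.02 (adjusted p = 0.93), and the repressor gene Ahrr was below the filter.

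The promoter of Cyp1b1 is shown because the gene moved with Cyp1a1, and the core of the element that the aryl hydrocarbon receptor binds, GCGTG on either strand, was searched in the 250 bases before the start of each gene (RefSeq, GRCr8). Capitals mark its matches, which begin at -81 and -20 from the start.
Cyp1b1, chr6:21094315-21094564, plus strand: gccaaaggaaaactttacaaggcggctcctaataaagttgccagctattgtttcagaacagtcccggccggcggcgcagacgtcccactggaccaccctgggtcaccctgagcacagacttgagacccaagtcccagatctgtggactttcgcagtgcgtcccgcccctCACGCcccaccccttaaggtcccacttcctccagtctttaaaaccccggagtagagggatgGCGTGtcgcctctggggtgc

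These letters occurred in 25.9% of all 33469 such windows and in 8 of the 42 P450 genes with an entry. They were found in 6 of 17 tested P450 genes, among them 2 of 6 that were lower. Cyp1a1 had no entry, so its promoter was not searched. A match is a description of the sequence.

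Family 2 held the largest difference. Cyp2c11, a steroid hydroxylase and arachidonate epoxygenase known as the male-specific P450 of rat liver, gave 1440, 1560 and 1560 in Lewis and 192, 182 and 170 in Dahl S. All 3 Dahl S rats were far below all 3 Lewis rats, and the rats of a strain lay close together. The log2 means were 10.59 ± 0.07 in Lewis and 7.62 ± 0.08 in Dahl S (SD, n = 3), and the difference of -2.96 (SE 0.08, adjusted p = 4.8e-10) is a 7.80-fold lower level in Dahl S. Cyp2e1, which oxidizes ethanol, acetone and small solvents, gave 3350, 3070 and 2900 in Lewis and 1950, 1830 and 1870 in Dahl S. The strains did not overlap, and the fall was 1.64-fold (-0.72, SE 0.07, adjusted p = 1.6e-05). Cyp2d2, a drug-metabolizing enzyme gene of the CYP2D cluster, gave 3350, 3870 and 3550 in Lewis and 2790, 2890 and 2770 in Dahl S. The strains were again apart, by 1.27-fold (-0.35, SE 0.06, adjusted p = 0.0027).

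**Figure D3:**
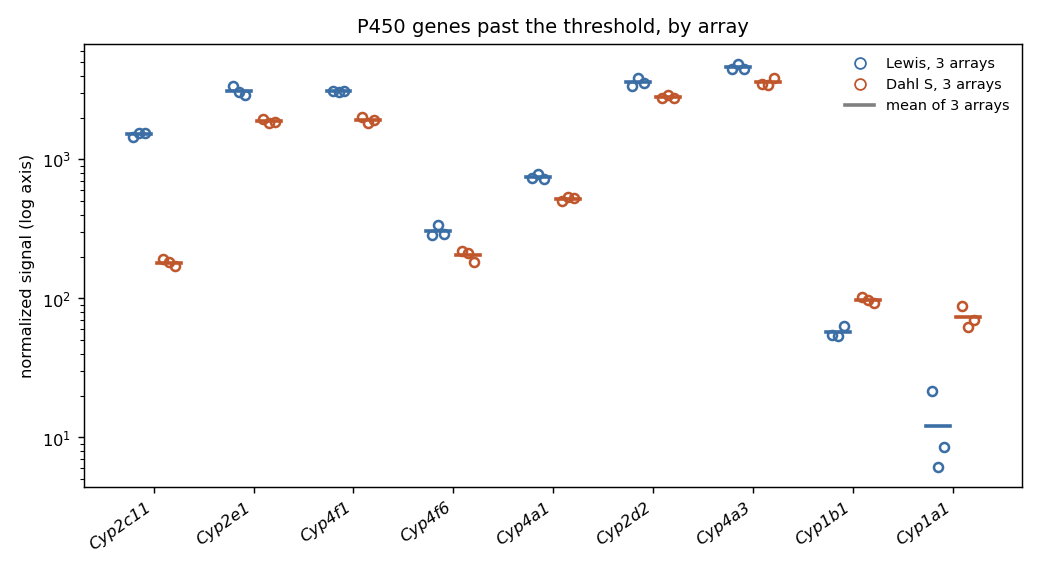
Normalized signal (log axis) of the 9 P450 genes past the threshold on each of the 3 Lewis and 3 Dahl S arrays, with a line at the mean of the 3 arrays. In every gene the strains are apart; the widest gap among the genes lower in Dahl S is that of Cyp2c11, and Cyp1a1 in Lewis lies between 6.14 and 21.5.

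The rest of family 2 did not pass. Cyp2c23, the main arachidonate epoxygenase gene of rat kidney, gave 6200, 6500 and 6670 in Lewis and 5880, 6040 and 5950 in Dahl S. The strains did not overlap, but the difference was small (-0.12, 95% confidence interval -0.22 to -0.01, adjusted p = 0.13). It passed when arrays were scaled to a common median (-0.35, adjusted p = 0.0081) and without Lewis array 1 (-0.14, adjusted p = 0.040), and was 0.09 in the deposited values. The epoxygenase gene Cyp2j4 gave 185, 187 and 167 in Lewis and 172, 191 and 184 in Dahl S, with overlap and a difference of 0.02 (interval -0.20 to 0.24). A pair of probe sets of Cyp2d4, a CYP2D enzyme gene also expressed in brain, gave -0.30 (interval -0.53 to -0.08, adjusted p = 0.062) and -0.15 (interval -0.41 to 0.12, adjusted p = 0.46). Cyp2t1 gave -0.32 (adjusted p = 0.084), and it and the first Cyp2d4 probe set passed without Lewis array 1 (-0.38, adjusted p = 0.044, and -0.33, adjusted p = 0.047). Cyp2u1, an enzyme gene for long-chain fatty acid hydroxylation, gave 0.35 (adjusted p = 0.058) and passed with the stricter filter (adjusted p = 0.048), without a variance trend (adjusted p = 0.028) and with the probe sets of each gene averaged (adjusted p = 0.040). Cyp2s1, expressed in epithelia, gave 0.25 (adjusted p = 0.22). One of the probe sets with several symbols, annotated to more than 1 gene of the CYP2D cluster, gave 2680, 2980 and 2990 in Lewis and 822, 731 and 818 in Dahl S (-1.85, SE 0.07, adjusted p = 1.1e-08); this probe set was singled out once its value was known, and the genes it may measure cannot be told apart.

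In the 17 untested probe sets of family 2 the signals ran from 0.599 to 68.4, with a median of 11.7. They include all probe sets of subfamilies 2A and 2B, and Cyp2c12, the female-specific P450 of rat liver (1.33 to 4.54 in Lewis and 2.73 to 6.72 in Dahl S), Cyp2c7 and the male-biased Cyp2c13. Both probe sets of the epoxygenase gene Cyp2j3 were untested: the first gave 27.6, 33.8 and 38.5 in Lewis and 68.4, 36.8 and 61.9 in Dahl S, with overlap, and 2 of these 6 values exceeded the median, 1 short of the filter.

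Family 3, the steroid and drug hydroxylases that dominate in liver and gut, was dim on every array. None of its 4 probe sets, Cyp3a2, Cyp3a9, Cyp3a18 and Cyp3a23-3a1, was tested, and signals ran from 0.183 to 21.6. Cyp3a9, a form known from several tissues outside the liver, gave 11.7, 1.45 and 5.86 in Lewis and at most 21.6 in Dahl S, and the strains overlapped. With no filter 0 of the 4 passed limma's adjusted threshold, with adjusted p between 0.18 and 0.79, and 1, Cyp3a9, had an unadjusted p under 0.05.

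Family 4, the fatty acid hydroxylases, was lower in Dahl S in 4 of 8 tested probe sets and higher in 0; without normalization 0 of these 4 passed in limma's fit, and 0 had an unadjusted p under 0.05. Cyp4f1, which hydroxylates arachidonate and leukotrienes, gave 3130, 3080 and 3110 in Lewis and 2010, 1840 and 1930 in Dahl S. The strains were well apart, with a 1.61-fold fall (-0.69, SE 0.06, adjusted p = 8.0e-06). Cyp4f6, next to it in the RefSeq order of protein-coding genes and of the same subfamily, gave 285, 337 and 293 in Lewis and 220, 211 and 182 in Dahl S (-0.54, SE 0.11, 1.46-fold, adjusted p = 0.0040). Cyp4a1, the fatty acid omega-hydroxylase gene known as a target of the nuclear receptor PPARA, gave 740, 782 and 718 in Lewis and 499, 540 and 531 in Dahl S. This was a 1.41-fold fall (-0.50, SE 0.08, adjusted p = 8.8e-04). Cyp4a3, its direct neighbour in the gene order and a renal arachidonate hydroxylase gene, gave 4440, 4850 and 4470 in Lewis and 3500, 3450 and 3830 in Dahl S (-0.35, SE 0.06, 1.28-fold, adjusted p = 0.0019). In none of these 4 genes did the strains overlap. Over all probe sets tested 7.75% were lower and 8.50% higher, and the strains were apart in 34.4%.

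The other tested members of family 4 did not pass. Cyp4a8, in the same cluster as Cyp4a1 and Cyp4a3, gave 4620, 4510 and 4380 in Lewis and 4230, 4290 and 4270 in Dahl S on its first probe set (-0.08, interval -0.19 to 0.03, adjusted p = 0.33). Its second gave 0.05 (interval -0.12 to 0.21, adjusted p = 0.74). A probe set shared by 2 Cyp4a symbols gave 10700, 11900 and 10500 in Lewis and 10700 on each Dahl S array (-0.04, adjusted p = 0.63). The genes that this shared probe set may measure cannot be told apart. Cyp4a2 has no probe set of its own by this annotation. Cyp4b1, on the other side of Cyp4a1 in the gene order and known from lung, gave -0.20 (interval -0.43 to 0.02, adjusted p = 0.21). Cyp4v3, a fatty acid hydroxylase gene, gave 365, 479 and 581 in Lewis and 527, 583 and 566 in Dahl S (0.25, adjusted p = 0.24), and passed without Lewis array 3 (0.40, adjusted p = 0.038). The 4 untested probe sets were those of Cyp4f4, Cyp4f5 and Cyp4f17 and a second one of Cyp4v3, with signals of 3.19 to 42.7.

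Promoters of Cyp2c11, Cyp2e1 and Cyp4a3 are shown because these are the genes lower in Dahl S whose 250 bases before the start hold the nuclear receptor half-site AGGTCA on either strand. Capitals mark the match, at -123, -200 and -105 from the start (RefSeq, GRCr8, gene strand, 5′ to 3′).
Cyp2c11, chr1:246174966-246175215, plus strand: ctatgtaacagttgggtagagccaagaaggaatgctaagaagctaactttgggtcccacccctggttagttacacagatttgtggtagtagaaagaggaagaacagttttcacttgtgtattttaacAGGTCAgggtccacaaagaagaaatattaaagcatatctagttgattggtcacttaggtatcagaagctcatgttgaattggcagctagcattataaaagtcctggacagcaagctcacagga
Cyp2e1, chr1:205269717-205269966, plus strand: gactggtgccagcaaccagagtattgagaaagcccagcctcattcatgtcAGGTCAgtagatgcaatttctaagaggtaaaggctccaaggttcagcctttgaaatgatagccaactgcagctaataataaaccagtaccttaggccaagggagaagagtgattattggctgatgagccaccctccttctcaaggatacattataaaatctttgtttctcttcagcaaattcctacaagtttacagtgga
Cyp4a3, chr5:134352237-134352486, minus strand: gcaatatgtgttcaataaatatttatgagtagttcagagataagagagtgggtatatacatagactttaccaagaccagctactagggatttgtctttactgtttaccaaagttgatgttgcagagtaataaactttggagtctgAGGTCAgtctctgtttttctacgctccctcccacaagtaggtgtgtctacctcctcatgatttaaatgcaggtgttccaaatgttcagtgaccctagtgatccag

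The half-site was present in 3 of the 6 lower genes with an entry, in 6 of 17 tested P450 genes, in 16 of all 42 P450 genes with an entry and in 14.1% of all windows. The TATA box, TATAAA on either strand, was found before Cyp2c11 at -31 and before Cyp2e1 at -49, and in 12.9% of all windows. The STAT motif TTCNNNGAA, which reads the same on both strands, was found before 0 of the 6 lower genes, 3 of the 17 tested and 7.67% of all windows. No match says only that these letters are not in this window.

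Among the other families 2 of 14 probe sets were tested. Cyp20a1, an orphan P450 gene, gave 558, 515 and 555 in Lewis and 574, 652 and 596 in Dahl S, without overlap (0.16, interval -0.02 to 0.34, adjusted p = 0.23). Cyp27a1, the mitochondrial sterol hydroxylase gene of bile acid synthesis, gave 167, 167 and 215 in Lewis and 136, 175 and 152 in Dahl S, with overlap (-0.22, interval -0.50 to 0.06, adjusted p = 0.27). Neither difference passed. The bile acid enzyme genes Cyp7a1, Cyp7b1, Cyp8b1 and Cyp39a1, the brain cholesterol hydroxylase gene Cyp46a1 and the steroid synthesis genes Cyp11a1, Cyp11b1, Cyp17a1, Cyp19a1 and Cyp21a1 were below the filter, with signals of 1.75 to 66.7. Of these Cyp11a1, the side-chain cleavage enzyme gene that starts steroid synthesis, was singled out once its values were known. Its signals were 23.3, 34.5 and 4.87 in Lewis and 60.2, 66.7 and 54.3 in Dahl S, without overlap, and with no filter the difference was 1.14 (SE 0.30, adjusted p = 0.056). The adrenal cortex markers Star (3.02 to 18.7 over the 6 arrays), Nr5a1 (4.06 to 31.0), Akr1b7 and Hsd3b1 were below the filter as well. Of these, Hsd3b1 gave 33.5, 37.6 and 41.2 in Lewis and 51.3, 54.4 and 67.3 in Dahl S. Hsd3b1 and Akr1b7 were higher in Dahl S without overlap, while Star and Nr5a1 overlapped. Of the 3 adrenal markers tested, Mrap was higher (0.87, adjusted p = 0.0012), Fdx1 lower (-0.25, adjusted p = 0.028) and Scarb1 did not pass. The sum over 8 markers was 1480 to 1620 in Lewis and 1480 to 1500 in Dahl S. Most of it was Fdx1, at 1310, 1240 and 1390 in Lewis and 1110, 1090 and 1100 in Dahl S. The sum therefore says little about the other markers. The part of adrenal tissue was not tested.

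**Figure D4:**
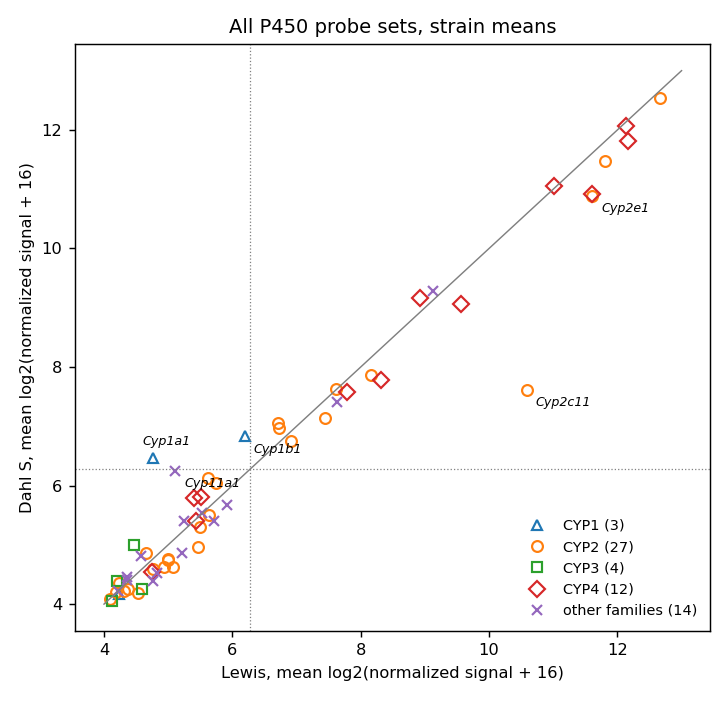
Mean log2(normalized signal + 16) of each of the 60 P450 probe sets in Dahl S (vertical axis) against Lewis (horizontal axis), with a marker for each family, a line of equality and dotted lines at the median of all values used by the filter. Most points in the upper right lie on or slightly below the line, Cyp2c11 lies far below it, and all 4 CYP3 points sit in the dim corner.

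Over the 38 untested probe sets the signals ran from 0.183 to 68.4 with a median of 11.5, and the strains were apart in 9. Among all tested probe sets 34.4% were apart, and the share among all untested ones was not counted. With no filter 0 of these 38 passed limma's adjusted threshold, where 6.55% of all 31042 probe sets, bright and dim, passed. Of the 38, 7 had an unadjusted p under 0.05, and the share of all probe sets with such a p was not counted. The same 7 lower and 2 higher counts were found among all 60. Because the filter removed dim probe sets, the counts describe the brighter P450 genes and not the whole group.

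Among 10 electron transfer genes that serve P450 enzymes 3 were lower and 0 higher, with a median of -0.15; without normalization 0 passed in limma's fit, 0 had an unadjusted p under 0.05, and the median was 0.21. Por, the reductase of all microsomal P450 enzymes, was 1.41-fold lower (-0.50, SE 0.08, adjusted p = 1.0e-03, but -0.06 without normalization). Cyb5b, the outer mitochondrial cytochrome b5, was 1.66-fold lower (-0.73, SE 0.09, adjusted p = 1.1e-04), and Fdx1, the mitochondrial ferredoxin, 1.19-fold lower (-0.25, SE 0.07, but 0.15 without normalization). Of 12 haem synthesis and breakdown genes tested 1 was lower, the synthesis enzyme gene Alad (-0.34, SE 0.08, adjusted p = 0.012, but 0.08 without normalization), while Alas1, the rate-limiting synthase, differed by 0.04 (adjusted p = 0.82). Of 6 tested genes that share arachidonate with P450 enzymes 1 was lower, the microsomal epoxide hydrolase gene Ephx1 (-0.45, SE 0.07, adjusted p = 5.7e-04, but -0.07 without normalization). In the values without normalization 0 of these 6 passed in limma's fit, 0 had an unadjusted p under 0.05, and the median was 0.17. Ephx2, the soluble epoxide hydrolase that breaks down arachidonate epoxides, differed by -0.23 (adjusted p = 0.072). Beside the counts of these lists, 7.62% of all genes tested were lower and 9.04% higher.

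Of 15 tested regulators of P450 genes 2 were lower and 0 higher, the retinoid X receptor gene Rxra (-0.45, SE 0.14, adjusted p = 0.047, but -0.06 without normalization) and the bile acid receptor gene Nr1h4 (-0.33, SE 0.10, adjusted p = 0.034, but 0.10 without normalization). Over all genes tested 7.62% were lower and 9.04% higher, so 2 of 15 is not set apart from the whole table. Without normalization 0 of the 15 passed in limma's fit, 1 had an unadjusted p under 0.05, and the median was 0.25. Hnf4a, a hepatocyte and proximal tubule factor, differed by -0.12 (adjusted p = 0.17), and Ppara and the drug receptor Nr1i3 were below the filter. Ppara gave 53.2, 55.7 and 32.7 in Lewis and 15.8, 21.5 and 16.5 in Dahl S, without overlap, and its difference was not tested. Nr1i3 overlapped. Growth hormone signalling, the known driver of male-specific Cyp2c11 in liver, held 9 tested genes. Of these Igf1, a growth hormone target, was 2.04-fold lower (-1.03, SE 0.09, adjusted p = 9.3e-06) and Bcl6, a repressor, 1.88-fold lower (-0.91, SE 0.09, adjusted p = 1.7e-05), while Cish, a feedback inhibitor, was 1.70-fold higher (0.77, SE 0.10, adjusted p = 1.9e-04). Without normalization Cish was higher (1.19) and neither Igf1 (-0.60) nor Bcl6 (-0.49) passed. The receptor gene Ghr differed by 0.01 (adjusted p = 0.93) and Stat5b by -0.42 (adjusted p = 0.070).

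**Figure D5:**
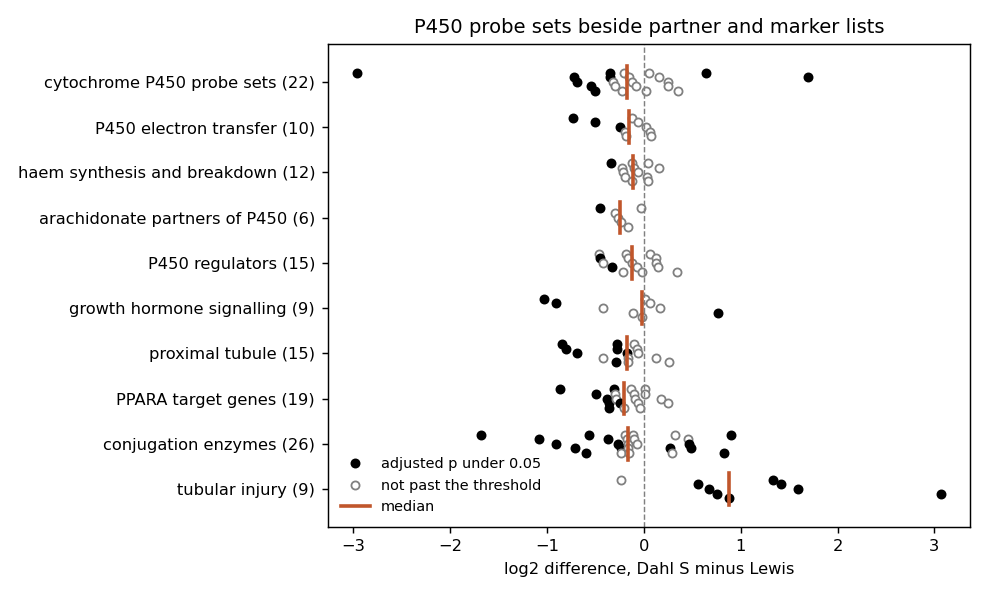
Difference between strains (Dahl S minus Lewis, log2 scale) of each tested P450 probe set and of each tested gene of 9 lists, with filled points past the adjusted threshold, a vertical bar at each median and the number tested in brackets. The median of the P450 row is -0.17 and that of the tubular injury row is 0.88. Medians of all other rows lie between -0.25 (arachidonate partners) and -0.02 (growth hormone signalling).

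Of 26 tested conjugation enzyme genes (Gst, Ugt and Sult) 9 were lower and 5 higher, with a median of -0.16. Over all genes tested 7.62% were lower and 9.04% higher. The largest fall was that of Ugt2b35 (-1.68, adjusted p = 1.4e-08), which also passed without normalization (-1.34, adjusted p = 0.0022). The largest rise was that of Gstm1 (0.90, adjusted p = 0.0013), which passed there too (1.33, adjusted p = 0.0025). Among the 9, Sult1c3 exceeded the filter's median on the Lewis arrays alone and was therefore bound to be lower. Without normalization Sult1c3 did not pass the filter, and 1 was lower and 2 higher of the remaining 25, with a median of 0.23. Of 19 tested PPARA targets 7 were lower and 0 higher, with a median of -0.20. Among the 7 was Pex11a (-0.86, adjusted p = 3.5e-05), which acts in peroxisome division. Decr1 (-0.38, adjusted p = 0.0019, but -0.02 without normalization) and Ech1 (-0.36, adjusted p = 0.0027, but 0.01 without normalization), of fatty acid oxidation, were also lower. Without normalization 0 of the 19 passed in limma's fit, and 1 had an unadjusted p under 0.05. No test of a difference between these groups and the P450 genes was made.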

How the data were processed

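Kidney RNA was measured on 1 array for each of 6 numbered rats. The authors computed the deposited signal intensities with GeneChip Operating Software version 1.4, per the labels' design text; the sources used here do not give the scaling target or detection calls. After leaving out control probe sets, log2(intensity + 16) of 31042 probe sets was quantile normalized, because the arrays were at different levels. Strains were compared across all probe sets passing the filter with limma 3.58.1 in R 4.3.3 (lmFit, eBayes with trend; tests two-sided), and calls were made at a Benjamini-Hochberg adjusted p of 0.05. An exact permutation test of 3 against 3 cannot go below 0.1, so none is given for single genes. For gene counts the probe set with the highest mean stood for a gene. An array left out was dropped from the fit only. The steps were tested on simulated data.

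Members and lists were chosen with earlier results of these data known. Named were all members past the threshold, a short set of renal P450 genes whatever their values, up to 4 members of each list past the threshold and Por, Havcr1, Alb and Lrp2. Other members and list genes named in the text, mostly ones that did not pass, fall outside this rule and were chosen after their values were seen. Symbols of all 60 members were unchanged in RefSeq (GRCr8), whose table also gave gene neighbours. The number of arrays limits the precision. The main fit was planned without a replicate block, since the labels give no batch. Their design text names 3 independent comparisons, so a replicate block was run as an alternative. Same-numbered arrays did not deviate together (correlations of -0.0456, -0.0981 and 0.113). Alternatives changed the normalization, pseudocount, filter and variance model, averaged the probe sets of a gene, or left out each array. Counts of the lists without normalization were added after the data were seen.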

Additional observations from a re-analysis of the deposited data

How the results depend on the processing

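Without normalization 666 probe sets of the whole table were higher and 47 lower, 93.4% higher against 52.3% after it, and 1 P450 probe set was lower, 1 of family 2 and 0 of family 4; Cyp2c23 (0.09), Cyp2t1 (0.10), Cyp4a8 (0.21), Cyp2d4 (0.12 and 0.24), Cyp4b1 (0.21) and Cyp27a1 (0.20) changed sign. With scaling to a common median the second Cyp4a8 probe set changed sign (-0.03). The stricter filter left 1 P450 probe set higher, 0 of family 1, since it removed Cyp1a1 and Cyp1b1, and 1 of family 2, Cyp2u1; without a variance trend 1 of family 2 was higher. With each array left out in turn the whole table gave 763 to 1449 higher and 725 to 1338 lower probe sets, lowest without Dahl S array 3; 7 to 10 P450 probe sets were lower, 3 to 6 of family 2, highest without Lewis array 1, and 0 to 1 of family 4 were higher, Cyp4v3 without Lewis array 3. Passing through 0, Cyp2j4 ran from -0.03 to 0.06 and the second Cyp4a8 probe set from -0.01 to 0.12. The replicate block gave 7 lower and 2 higher P450 probe sets and, in the whole table, 1199 lower and 1295 higher. All 9 P450 calls held under cyclic loess, common-median scaling, either pseudocount, no filter, no variance trend, the replicate block and each array left out, and averaging the probe sets of each gene gave 7 genes lower and 3 higher, the added gene being Cyp2u1 (adjusted p = 0.040). Causes were not tested.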
